A study of Drosophila melanogaster with 48 samples.

Results

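The 7 genes described here encode the RNAs and proteins of the Drosophila dosage compensation machinery. They are the noncoding RNAs lncRNA:roX1 and lncRNA:roX2 (here roX1 and roX2) and the protein genes msl-1, msl-2, msl-3, mle and mof. They were chosen by their FlyBase symbols among the 17490 gene identifiers of the count table, and all 7 were found and passed the filter on low counts. In male flies the male-specific lethal (MSL) complex binds the single X chromosome and raises its transcription, so that X-linked genes are expressed at about the level seen in females, which carry a pair of X chromosomes. MSL1 and MSL2 form the core that binds the chromosome, MSL3 reads a methylated histone mark, MLE is an RNA helicase that remodels the roX RNAs, and MOF acetylates histone H4. The complex is not assembled in females, because Sex-lethal (Sxl) blocks translation of the msl-2 messenger RNA there. Both roX RNAs are made from the X chromosome and can substitute for each other in males.

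Expression was measured by RNA-seq in fly brains, in a study of mucopolysaccharidosis IIIB, a lysosomal storage disease caused by loss of the enzyme NAGLU. There were 48 libraries, 3 for each of 16 groups that combine a sex (female or male), an age (week 0 or week 3) and a genotype, which is WG2, NAGLU KO, Y160C or W422X. Each library came from a pool of 20 brains. KO is labelled a knockout, W422X carries the name of a stop codon and Y160C that of an amino acid change. WG2 was used as the control because no NAGLU change is named for it, although nothing states that the mutants derive from it. Each mutant is 1 line, and separate cultures are not stated for the replicates, so p-values measure the spread between these pools.

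Total counts per library ran from 8690199 to 55801160. Naglu, the targeted gene, stood at 1.4 to 3.71 CPM (read counts scaled to a common library size) in the 12 KO libraries, 4.55 to 9.13 in W422X, 17.5 to 25.7 in Y160C and 17.9 to 29.5 in WG2. Markers of neurons summed to between 6159 and 13380 CPM in every library, while those of testis and of ovary summed to at most 26.4 and 19.4 CPM. Libraries that stood apart were KO female week 3 replicates 1 and 3, whose haemocyte markers reached 7746 CPM, KO male week 0 replicate 2 (described below) and the 9 libraries with the highest normalization factors, all of week 3. Since the samples are bulk tissue, fewer cells of a type and less RNA per cell cannot be told apart.

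The roX RNAs separated the sexes in every library. In the annotation BDGP6.54, roX1 (FBgn0019661) lies at X:3857230-3862697 on the minus strand and roX2 (FBgn0019660) at X:11579065-11580432 on the plus strand. Together they took 0.449% to 0.713% of all counts in the male libraries and 0.0014% to 0.00612% in the female ones. In males roX1 ran from 3655 CPM through a median of 4798 to 6279 CPM (n = 24), and in females from 13.4 through 31.3 to 52.2 CPM (n = 24). In males roX2 ran from 254 through 330 to 435 CPM, and in females from 0.411 through 1.23 to 3.83 CPM. No female library came near the lowest male library for either RNA, so all 48 sex labels matched the roX level.

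**Figure D1:**
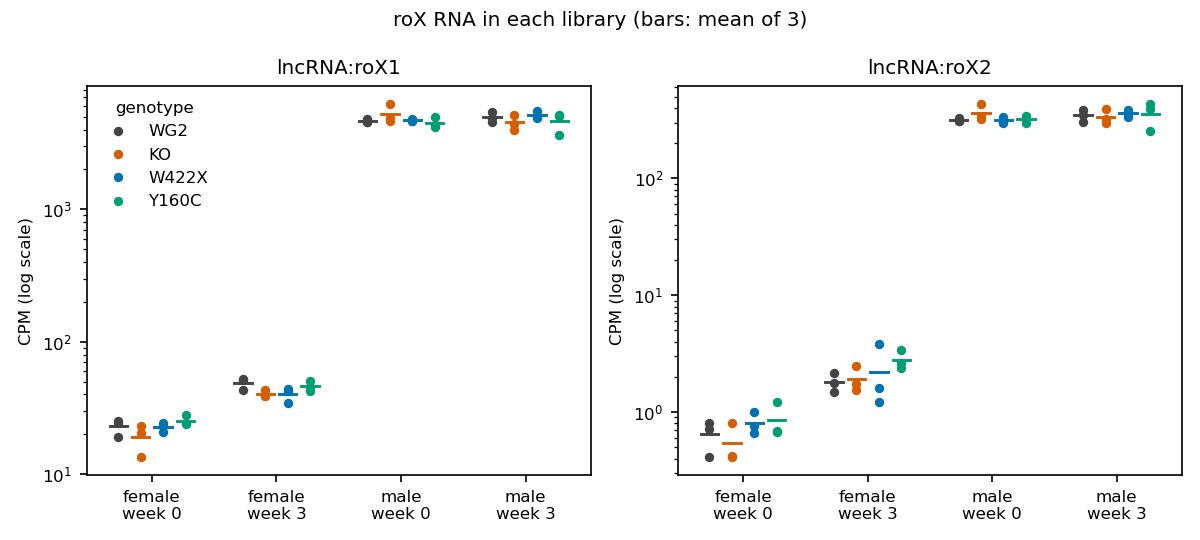
CPM of lncRNA:roX1 (left) and lncRNA:roX2 (right) in each library on a log axis, by sex, age and genotype; points are libraries and bars are means of 3. Male libraries lie at 3655 CPM or more for roX1 and 254 CPM or more for roX2, and within each genotype the female values at week 3 lie above those at week 0.

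By genotype, the WG2 males had 4800, 4598 and 4567 CPM of roX1 at week 0 and 4566, 4885 and 5442 CPM at week 3. KO males had 4856, 6279 and 4624 CPM at week 0 and 5180, 3971 and 4436 CPM at week 3. The single value of 6279 CPM, in KO male week 0 replicate 2, was the highest of the series. W422X males had 4658, 4797 and 4670 CPM at week 0 and 5006, 5561 and 4862 CPM at week 3. Y160C males had 5017, 4196 and 4302 CPM at week 0 and 5185, 5060 and 3655 CPM at week 3. The ranges of the 4 genotypes overlapped in males at both ages.

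For roX2, WG2 males had 308, 325 and 310 CPM at week 0 and 351, 301 and 383 CPM at week 3. KO males had 340, 435 and 319 CPM at week 0 and 388, 299 and 322 CPM at week 3. The high value of 435 CPM came from the same KO library that was highest for roX1. W422X males had 306, 300.0 and 334 CPM at week 0 and 383, 337 and 358 CPM at week 3. Y160C males had 344, 299 and 326 CPM at week 0 and 431, 390.2 and 254 CPM at week 3. The lowest roX2 value among males, 254 CPM, came from Y160C male week 3 replicate 3, which was also the lowest for roX1.

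Averaged over the 8 combinations of genotype and age, roX1 was higher in males by a log2 fold change of 7.26 ± 0.07 (SE, 153-fold; edgeR quasi-likelihood test, adjusted p = 9.43e-44). The roX2 difference was 8.09 ± 0.11 (272-fold; edgeR adjusted p = 5.75e-39). These were the genes ranked 1 and 2 by p among 15807 tested. Of the members, 3 of 7 were called higher in males at an adjusted p under 0.05 and 0 were lower, where 10.1% of all genes were called and 6.04% were called higher. Both roX RNAs were also called within each genotype, where 0.93% of genes were called in WG2, 2.13% in KO, 1.57% in W422X and 1.25% in Y160C. The log2 difference within a genotype ran from 7.06 in Y160C to 7.46 in KO for roX1, and from 7.77 in Y160C to 8.42 in KO for roX2.

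Per kilobase of the deposited gene length, roX1 was also the more abundant of the pair in males. At week 0 it stood at 874 ± 95.5 CPM per kb (SD, n = 12) against 240.3 ± 26.9 for roX2, and at week 3 at 881 ± 104 against 256 ± 36.1. In females the levels were 4.12 ± 0.68 and 0.523 ± 0.176 CPM per kb at week 0 and 8.03 ± 0.967 and 1.6 ± 0.586 at week 3. The ratio of roX1 counts to roX2 counts was narrow in males, 12 to 16.5, and ran from 11.1 to 61.5 in females, where roX2 counts were as low as 6. The roX1 annotation shares 392 exonic bases with ec on the other strand, and the strand setting of the counting is not given. The gene ec itself stood at 3.22 to 28.1 CPM in females and 4.16 to 11.8 CPM in males.

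Female roX RNA, although scarce, was higher at week 3 in all 4 genotypes. For roX1, WG2 females had 25.4, 24.3 and 19.1 CPM at week 0 and 51.1, 43.1 and 52.2 CPM at week 3. KO females had 23.1, 13.4 and 20.5 CPM at week 0 and 43.2, 39.2 and 38.8 CPM at week 3. The 2 ages did not overlap in either genotype. W422X females had 23.1, 24.1 and 20.8 CPM at week 0 and 42.5, 43.7 and 34.6 CPM at week 3. Y160C females had 24.4, 23.8 and 27.9 CPM at week 0 and 45.8, 42.4 and 50.6 CPM at week 3. Over all genotypes the highest week 0 library, at 27.9 CPM, lay below the lowest week 3 library, at 34.6 CPM.

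For roX2, WG2 females had 0.413, 0.72 and 0.806 CPM at week 0 and 1.5, 2.18 and 1.79 CPM at week 3. KO females had 0.42, 0.805 and 0.411 CPM at week 0 and 2.47, 1.54 and 1.72 CPM at week 3. W422X females had 0.667, 0.999 and 0.765 CPM at week 0 and 3.83, 1.61 and 1.23 CPM at week 3. The lowest of these week 3 values rested on 22 counts. Y160C females had 0.688, 1.23 and 0.67 CPM at week 0 and 2.62, 3.42 and 2.4 CPM at week 3. Within each genotype every week 3 library exceeded every week 0 library, while over all genotypes the ages overlapped slightly, at 1.23 CPM.

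In the age comparison within females, roX1 rose by 0.97 ± 0.08 (log2, SE; edgeR adjusted p = 2.31e-11) and roX2 by 1.62 ± 0.17 (edgeR adjusted p = 4.95e-09). In males roX1 changed by 0.01 (95% interval -0.14 to 0.16; edgeR adjusted p = 0.974) and roX2 by 0.09 (-0.12 to 0.30; edgeR adjusted p = 0.703). The difference between the sexes was itself tested and was called for both, at -0.96 ± 0.11 for roX1 (edgeR adjusted p = 6.36e-07) and -1.52 ± 0.20 for roX2 (edgeR adjusted p = 1.67e-05), males minus females. Female roX1 stood at 0.471% of the male mean at week 0 and 0.912% at week 3, and female roX2 at 0.218% and 0.627%.

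Several other measures moved with age in the female libraries. The female means differed between the ages by 21.4 CPM for roX1 and 1.48 CPM for roX2, a ratio of 14.5, where the male means stood in a ratio of 14.1. The ratio of these increases ran from 10.7 in Y160C to 22 in WG2, and without the 9 libraries with the highest normalization factors it was 22.9, against 14.2 for the male means. A list of Y-linked genes, which only males carry, summed to 1.32 to 14.6 CPM in week 0 females and 1.64 to 101 CPM in week 3 females. In males the list summed to 1.9 to 33.8 CPM. Of its 10 tested genes 7 were called higher at week 3 in females, where 39.8% of all genes were called higher. Over all 51 tested genes of the Y chromosome, 12 (23.5%) were called higher at week 3 in females. Of the same 51 genes, 28 (54.9%) were called higher in males than in females. Of the 10 genes in the list, DESeq2 called 0 between the sexes. The median sum of the list was 5.77 CPM in females and 7.145 CPM in males at week 0. At week 3 it was 8.83 and 13.4 CPM. The summed neuron markers had a median of 11320 CPM in week 0 and 7090 CPM in week 3 females, with 5 of 5 called lower. All 5 tested markers of testis were called higher, with a summed median of 2.14 CPM at week 0 and 7.42 CPM at week 3. All 5 of ovary were called higher too, with summed medians of 2.18 and 6.79 CPM, and of 5 haemocyte markers 4 were called higher and 1 lower. The gene ec had a median of 5.53 CPM in week 0 females and 10.4 CPM in week 3 females. In the 6 week 3 female libraries among the 9 with the highest normalization factors, roX1 had a median of 42.8 CPM against 47.1 CPM in the other 6, and roX2 a median of 2.54 against 1.67 CPM. Without all 9 such libraries, roX1 rose by 1.05 and roX2 by 1.37 (log2; edgeR adjusted p = 6.62e-11 and 5.8e-08). The part of the Y-linked signal, of ec, of the cell type markers and of male RNA in the female roX values was not tested.

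Across the male libraries the roX RNAs varied together. Pearson's r of their log2 CPM was 0.798 (n = 24, permutation p = 3e-05 after adjustment over both sexes) and Spearman's rho was 0.748 (permutation p = 6e-05). Without the 2 libraries farthest from the median roX1 level r was 0.645, and for deviations from group means it was 0.836. Within week 0 r was 0.869 (n = 12) but 0.206 without the 2 farthest libraries, and within week 3 it was 0.787 and 0.424, so within an age Pearson's r rested on few libraries. Spearman's rho was 0.566 at week 0 (permutation p = 0.059) and 0.699 at week 3 (permutation p = 0.0139). In females the ages formed separate clusters, so no pooled value is given: r was -0.123 at week 0 (n = 12, permutation p = 0.699) and 0.205 at week 3 (n = 12, permutation p = 0.521). All points share the scaling of their library.

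**Figure D2:**
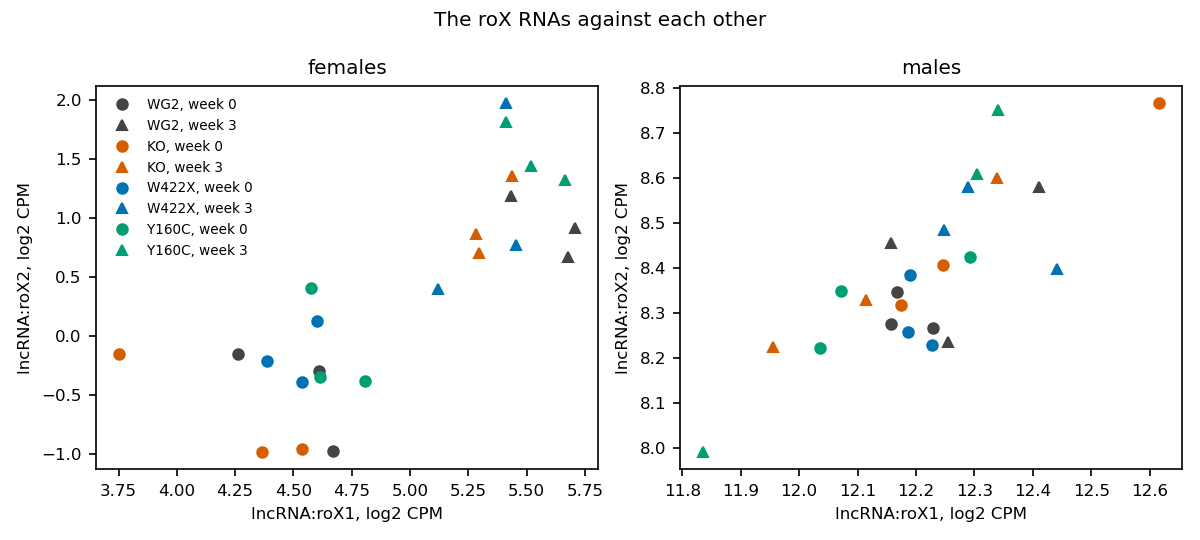
log2 CPM of lncRNA:roX2 against lncRNA:roX1 in females (left) and males (right), 1 point per library, with week 0 as circles, week 3 as triangles and genotype by colour. In males r is 0.798; in females the ages form separate clusters, with r of -0.123 at week 0 and 0.205 at week 3.

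Among the protein genes, msl-2 alone was called between the sexes. The gene msl-2 (FBgn0005616, 2L:3462218-3466112, minus strand) encodes the subunit whose translation is confined to males. It ran from 64.4 through a median of 95.5 to 109.5 CPM in males (n = 24) and from 59.5 through 78.0 to 91.1 CPM in females (n = 24). The sexes overlapped, although the male mean was the higher in all 4 genotypes at both ages. WG2 males had 82.0, 91.8 and 85.5 CPM at week 0 and 109.5, 101.0 and 97.9 CPM at week 3. WG2 females had 84.7, 81.4 and 77.6 CPM at week 0 and 75.2, 66.6 and 75 CPM at week 3. In WG2 the sexes overlapped at week 0 and were apart at week 3.

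The log2 difference of msl-2 between males and females was 0.26 ± 0.05 (SE, 1.2-fold; edgeR adjusted p = 0.000531). It was called in 48 of 48 fits that left out 1 library, with values from 0.21 to 0.28. Within WG2 alone it was 0.30 ± 0.10 (edgeR adjusted p = 0.281), which did not pass, while DESeq2 (0.28, adjusted p = 0.0342) and the stricter filter on low counts (0.28, edgeR adjusted p = 0.00855) called it. In the mutants it ran from 0.20 in Y160C to 0.32 in W422X, none called. The messenger RNA that Sxl silences was thus present in both sexes, at 20.3 ± 2.36 CPM per kb in females and 24.2 ± 2.98 in males (SD, n = 24 each).

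The remaining protein genes did not pass the test between the sexes. The gene msl-1 (FBgn0005617, 2L:18683720-18688800) encodes the scaffold of the complex and differed by -0.05 (95% interval -0.14 to 0.05). The gene msl-3 (FBgn0002775, 3L:7123213-7125533) encodes the chromodomain subunit and differed by 0.07 (-0.01 to 0.14). The helicase gene mle (FBgn0002774, 2R:5974857-5980778) differed by 0.02 (-0.08 to 0.12). The acetyltransferase gene mof (FBgn0014340, X:5873840-5876853), itself X-linked, differed by -0.04 (-0.12 to 0.05). All 4 edgeR adjusted p-values lay between 0.363 and 0.882. Within males the order per kilobase was roX1, roX2, mle at 31 ± 3.46, msl-2 at 24.2 ± 2.98, msl-1 at 17.1 ± 2.44, msl-3 at 14.9 ± 1.51 and mof at 8.33 ± 1.14 CPM per kb (SD, n = 24). Only msl-1 and msl-3 lay closer together than their SD. In females, over both ages, the roX RNAs fell to the bottom of that order, at 6.07 ± 2.16 for roX1 and 1.06 ± 0.695 for roX2. In week 3 females roX1 lay near mof, at 8.03 ± 0.967 against 8.68 ± 0.5975 CPM per kb (SD, n = 12). There the roX1 mean was the higher in WG2 and Y160C and the lower in KO and W422X.

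**Figure D3:**
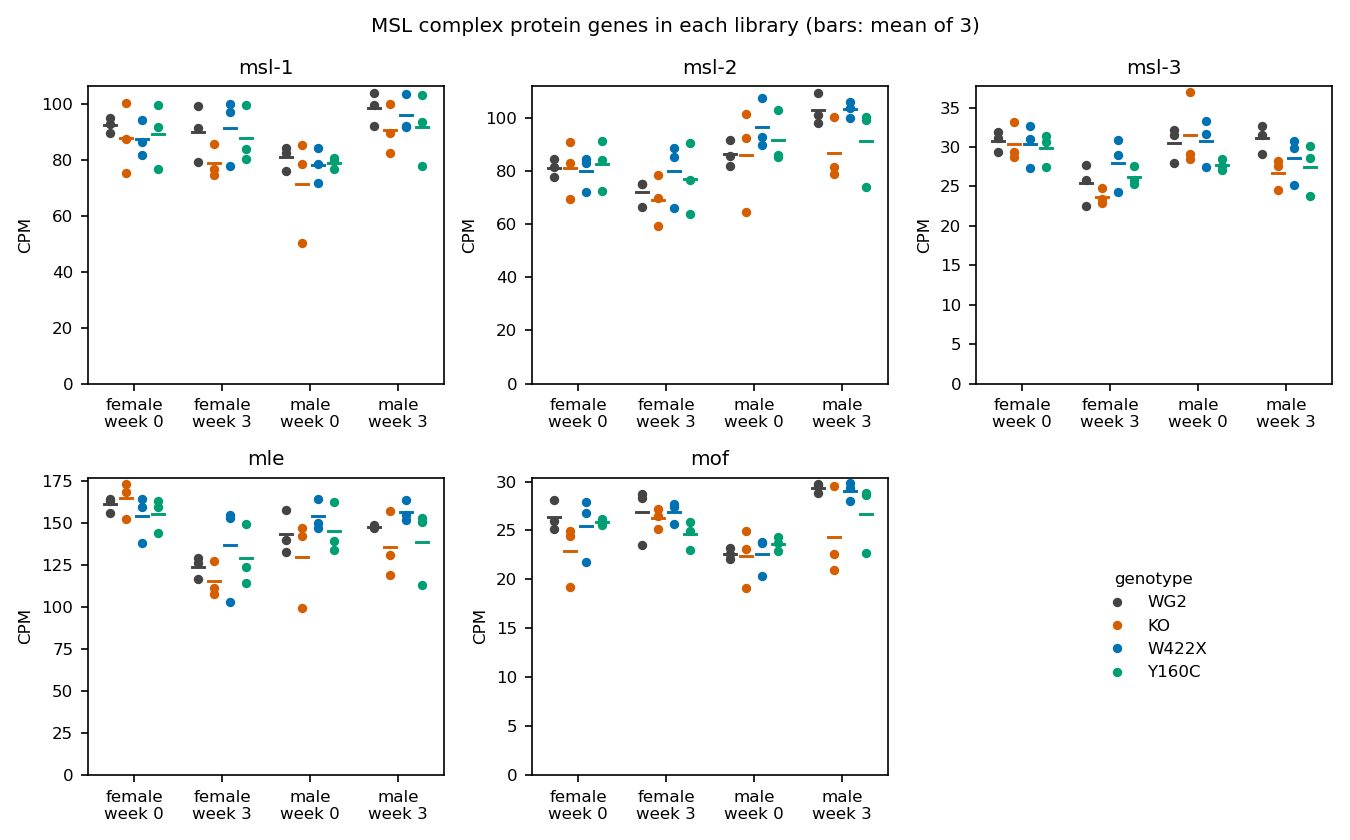
CPM of msl-1, msl-2, msl-3, mle and mof in each library, by sex, age and genotype; points are libraries and bars are means of 3. The sexes overlap for every gene, and the male libraries reach 109.5 CPM for msl-2 against 91.1 CPM in females; KO male week 0 replicate 2 is the low point for msl-1, msl-2 and mle in that group.

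With age, the protein genes moved by less than the roX RNAs did in females. In females mle fell by 0.33 on the log2 scale (SE 0.07; edgeR adjusted p = 0.000252) and msl-3 fell by 0.24 (SE 0.06; edgeR adjusted p = 0.000839). Counting the roX RNAs, 2 of 7 members rose and 2 fell, where 62.4% of all genes were called, 39.8% higher and 22.6% lower. In males msl-1 rose by 0.28 ± 0.07 (edgeR adjusted p = 0.00238) and mof by 0.26 ± 0.06 (edgeR adjusted p = 0.000859), so that 2 of 7 members rose and 0 fell, where 18.6% of genes were called and 11.5% rose. With 7 genes these counts are not read as particular to the members. The mof level in females moved by 0.06 (edgeR adjusted p = 0.383), but DESeq2 (0.15, adjusted p = 0.0016), median-of-ratios size factors (0.15, edgeR adjusted p = 0.00398) and the stricter filter (0.22, edgeR adjusted p = 3.23e-05) called it higher, and its age effect was not called different between the sexes (edgeR adjusted p = 0.0592). With DESeq2 3 members thus rose and 2 fell in females. The neuron markers also moved with age, 5 of 5 called lower in females (median log2 change -0.56) and 4 of 5 in males (-0.42), and their part in the changes of the protein genes was not tested.

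The mle level ran from 138 through 161 to 173 CPM in week 0 females (n = 12) and from 103 through 125 to 155 CPM in week 3 females (n = 12). In WG2 females it was 156, 164 and 163 CPM at week 0 and 129, 117 and 126 CPM at week 3, with no overlap. In W422X the ages overlapped, with 164, 159 and 138 CPM against 103, 153 and 155 CPM. The msl-3 level ran from 27.4 through 30.8 to 33.2 CPM in week 0 females and from 22.6 through 25.5 to 30.9 CPM in week 3 females, so its ages overlapped in part. The msl-3 call did not survive without the 9 libraries with a high normalization factor (-0.13, edgeR adjusted p = 0.123) or under the stricter filter (-0.08, edgeR adjusted p = 0.133). The mle call was kept in 48 of 48 fits without 1 library and in 9 of 9 other settings, but its size was -0.18 under the stricter filter (edgeR adjusted p = 0.00034) and -0.19 without the 9 libraries (edgeR adjusted p = 0.0429).

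The msl-1 level ran from 50.1 through 79.2 to 85.2 CPM in week 0 males (n = 12) and from 77.9 through 92.9 to 103.7 CPM in week 3 males (n = 12). In WG2 males it was 82.5, 76.1 and 84.3 CPM at week 0 and 92.0, 103.7 and 99.5 CPM at week 3. The mof level ran from 19.1 through 23.1 to 25 CPM in week 0 males and from 21 through 28.9 to 29.9 CPM in week 3 males. In WG2 males it was 22.6, 23.2 and 22.1 CPM at week 0 and 29.5, 29.7 and 28.9 CPM at week 3. For both genes the WG2 ages were apart, and the mean at week 3 was the higher in all 4 genotypes. The share of all genes whose libraries separate likewise was not counted. Here and above, separation within a genotype is therefore not read as particular to the members. The low value of 50.1 CPM belonged to KO male week 0 replicate 2, in which msl-2 (64.4 CPM) and mle (99.3 CPM) were also the lowest of the week 0 males, and msl-3 (37 CPM) the highest.

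Both male calls were lost in some fits without 1 library. Leaving out any 1 of 17 of the 48 libraries, all of week 3, ended both, with values of 0.10 to 0.13 for msl-1 and 0.06 to 0.10 for mof. These were KO female replicate 2, KO male 1 and 2, W422X female 2 and 3, W422X male 1 to 3, Y160C female 2 and 3, Y160C male 1 and 2, WG2 female 1 and 3, and WG2 male 1 to 3. The female libraries among them enter no mean of the male age comparison, only the filter, scaling and dispersion shared by all libraries. The cause of the lost calls was not tested. The median gene, over 11225 genes with a mean of at least 1 CPM, stood at 0.02 for age in males with all libraries. Over the 48 fits without 1 library it stood between -0.15 and 0.07. Relative to that median, msl-1 stood at 0.26 with all libraries and 0.21 to 0.29 with 1 left out, and mof at 0.24 and 0.20 to 0.27. In females, relative to a median of -0.06, mle stood at -0.27 (-0.29 to -0.25), msl-3 at -0.17 (-0.19 to -0.16), roX1 at 1.03 (0.99 to 1.07) and roX2 at 1.68 (1.5 to 1.79).

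**Figure D4:**
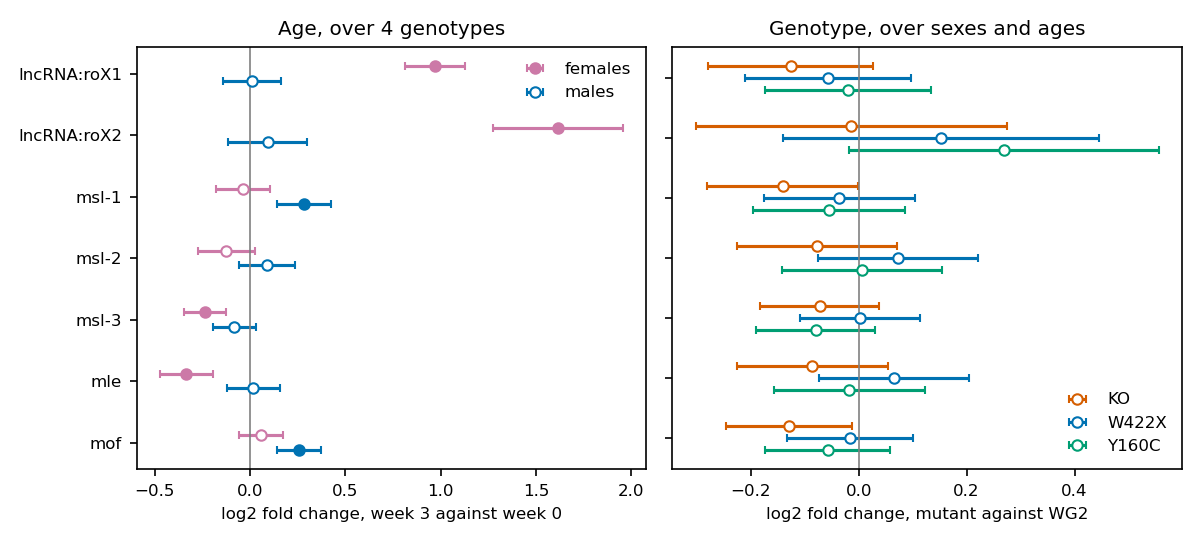
log2 fold changes of the 7 genes with 95% intervals, for week 3 against week 0 in females and males (left) and for each mutant against WG2 (right); filled points passed an edgeR adjusted p of 0.05. The roX RNAs rise in females by 0.97 and 1.62, and no point is filled on the genotype side.

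The age effect differed between the sexes for 4 of 7 members, 2 with a higher and 2 with a lower value in males, where 23.4% of genes were called, 7.95% higher and 15.4% lower. Beside the roX RNAs these were msl-1 at 0.32 ± 0.10 (edgeR adjusted p = 0.037) and mle at 0.35 ± 0.10 (edgeR adjusted p = 0.0358). The median gene stood at 0.13 in this contrast, and relative to it msl-1 stood at 0.19 and mle at 0.22. Without KO female week 3 replicates 1 and 3, msl-1 was at 0.27 (edgeR adjusted p = 0.141) and mle at 0.29 (edgeR adjusted p = 0.129). Leaving out 1 library ended the msl-1 call in 35 of 48 fits (0.15 to 0.32) and the mle call in 30 of 48 (0.18 to 0.35). The roX1 and roX2 calls were kept in all 48.

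No member was called between a mutant and WG2. Over both sexes and ages edgeR called 0 of 7 members in KO, where 0.747% of genes were called, 0 in W422X (0.373%) and 0 in Y160C (0.31%). For dependence on sex the count was 0 in KO (0.152% of genes called), W422X (0%) and Y160C (0.00633%), and for dependence on age 0 in KO (0.215%), W422X (0%) and Y160C (0.019%). Over these 9 comparisons DESeq2 also called 0 members, and 2 tests, both in KO, had an unadjusted p under 0.05 in edgeR. They were msl-1 at -0.14 (95% interval -0.28 to -0.001; edgeR adjusted p = 0.339) and mof at -0.13 (-0.25 to -0.01; edgeR adjusted p = 0.335). Over all genes, W422X by sex and W422X by age had 0 calls in edgeR, 3 each in DESeq2, and 622 and 207 genes at an unadjusted p under 0.05.

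The intervals show what these comparisons could have missed. Among males roX1 differed from WG2 by 0.02 in KO (95% interval -0.19 to 0.23), 0.03 in W422X (-0.18 to 0.25) and -0.07 in Y160C (-0.29 to 0.14). Among females the intervals were similar for roX1, with the lowest value at -0.27 in KO (-0.49 to -0.05; edgeR adjusted p = 0.551). For roX2 in females they were wider, with 0.49 in Y160C (0 to 0.99; edgeR adjusted p = 1) as the highest value. The 3 comparisons share the WG2 libraries.

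The transcripts of X-linked genes were compared with those of the autosomes, because the X chromosome is what the complex acts on. Over 2392 tested X-linked genes the median log2 difference between males and females was -0.13, against -0.02 for 13061 genes of the large autosome arms. Restricted to genes with a mean of at least 1 CPM, the medians were -0.07 for 1851 X-linked genes and 0.02 for 9119 autosomal genes, that is 0.952-fold and 1.01-fold. Of the X-linked genes 9.74% were called higher and 17.1% lower in males, against 5.09% and 1.74% on the autosome arms. The difference of the medians was -0.12 with the main scaling, with median-of-ratios size factors and with factors from autosomal genes. A change of scaling shifts all genes nearly alike, so these settings could hardly move that difference. Without the 9 libraries with a high normalization factor it was -0.096. These medians are a description, with no test.

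X-linked genes made up 18.6% ± 0.38 of counts in males and 19.1% ± 0.49 in females (SD, n = 24 each). The male share was lower by 0.551 percentage points, averaged over the 8 combinations of genotype and age (two-sided permutation test within them, p = 1e-05, the smallest that 100000 resamples give). Males were lower in all 8, by 0.195 points in Y160C at week 0 to 1.47 points in KO at week 3. The latter includes KO female week 3 replicates 1 and 3, which had a high haemocyte marker sum, mostly from Hml. Their X shares were 20.2% and 20.3%, against 19.4% in replicate 2. With the roX RNAs left out of the X-linked counts, the difference was -0.976 points. The X-linked yolk protein genes Yp1, Yp2 and Yp3 stayed in these counts. Their means were 369.5, 604.5 and 573.6 CPM in females and 3.38, 5.11 and 7.04 CPM in males. Their part in the difference was not tested. Without the 9 libraries with a high normalization factor it was -0.488 points (permutation p = 0.00151).

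**Figure D5:**
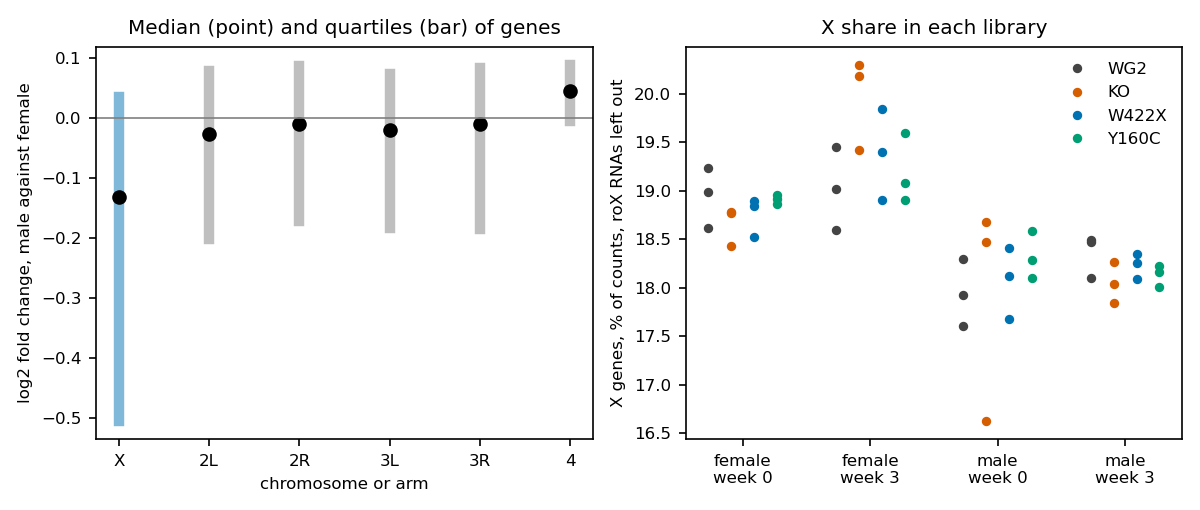
Left, median (point) and quartiles (bar) of the log2 difference between males and females over the tested genes of each chromosome or arm; right, share of counts from X-linked genes without the roX RNAs in each library. The X median lies at -0.13, and the male shares average 18.1% against 19.1% in females.

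The X-linked genes with the largest called differences of the same sign in all 8 combinations, at a mean level of 1 CPM or more, were roX2 and roX1, followed in males by brv3 (2.33 ± 0.23), Muc14A (2.06 ± 0.14) and nod (2.05 ± 0.21; log2, SE). The gene nod encodes a kinesin-like protein of the meiotic spindle. Those lower in males were the yolk protein genes Yp2 (-7.07 ± 0.29), Yp1 (-6.96 ± 0.25) and Yp3 (-6.40 ± 0.28), followed by CG4020 (-1.99 ± 0.12) and lncRNA:CR32636 (-1.93 ± 0.14). The yolk protein genes are expressed by female fat body. The 6 fat body markers, which include them, summed to 387 to 3866 CPM in females and 5.41 to 56.7 CPM in males. Most of the female sum came from Yp1, Yp2 and Yp3, so it cannot tell more fat body from higher expression of these genes. DESeq2 called 4 of the 6 lower in males and 0 higher. The marker to had the higher means in males, 1.5 CPM at week 0 and 3.87 at week 3, against 0.404 and 1.05 in females. Of 6 glial markers 5 were called higher in males. Of 5 haemocyte markers 3 were called lower, and DESeq2 called 3 lower and 1 higher. Pxn had the higher means in males, 318 CPM at week 0 and 210 at week 3, against 281 and 186 in females. The part of these tissues in the sex differences of the members was not tested.

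Partners and regulators of the complex were compared between the sexes by lists. Of 4 repressors of msl-2, only Sxl was called, lower in males by 0.66 on the log2 scale (-0.66 ± 0.04; edgeR adjusted p = 7.81e-15). Sxl stood at 859 ± 66.1 CPM in week 0 females and 530 ± 34.7 CPM in week 0 males (SD, n = 12 each). Counts are per gene, for Sxl and for the sex determination genes below, so isoforms and protein levels were not measured. Unr, its partner in repressing msl-2, differed by 0.04 (edgeR adjusted p = 0.721). Of 11 tested cofactors and chromatin partners of the MSL complex edgeR and DESeq2 each called 0, and 0 had an unadjusted p under 0.05 in edgeR. Clamp, a zinc finger protein that guides the complex to the X chromosome, differed by 0.03 (edgeR adjusted p = 0.865). Of the 6 genes of the NSL complex, the other complex that holds MOF, edgeR called 0, with 1 at an unadjusted p under 0.05, and DESeq2 called 1 lower. The list medians were between -0.05 and 0.00, against -0.03 for all genes.

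In a list of 4 genes, the other acetyltransferases of the MOF family and MRG15, Tip60 (-0.17 ± 0.05; edgeR adjusted p = 0.0272) and chm (-0.16 ± 0.05; edgeR adjusted p = 0.0465) were called lower in males. Of 9 genes of sex determination, dsx (0.28 ± 0.06) was called higher in males, and fru (-0.48 ± 0.05) and tra (-0.23 ± 0.05) were called lower. Pof, which encodes the protein that paints the fourth chromosome, differed by 0.08 (edgeR adjusted p = 0.368). With age, edgeR called 4 of the 11 MSL cofactors lower in females, where 22.6% of genes fell: Clamp, JIL-1, E(bx) and Su(var)3-7. DESeq2 called 1 lower and 1 higher. In males edgeR called 4 higher, where 11.5% of genes rose: Top2, Iswi, pzg and Su(var)3-7, and DESeq2 called 5. Su(var)3-7, a heterochromatin protein, stood at -0.16 ± 0.07 in females and 0.19 ± 0.07 in males (log2, SE). These calls share the scaling of the libraries, and the median gene moved between fits, as described above for msl-1 and mof.

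Finally, the genes most like each member across the 48 libraries were found by Pearson's r of log2 CPM, as a description. These values carry the differences between groups, for the roX RNAs mainly that between the sexes. The closest to roX1 was roX2 (0.995), followed by asRNA:CR45479 (0.929) and mthl1 (0.921), all X-linked. The closest to msl-1 was Cp190 (0.941), to msl-2 dome (0.931), to msl-3 tacc (0.864), to mle Khc-73 (0.967) and to mof Ranbp21 (0.856). After the group means were removed, mle and msl-2 correlated at 0.909, msl-1 and mle at 0.812 and msl-1 and msl-2 at 0.803. With a protein gene the roX RNAs ran from -0.434 (roX2 with msl-2) to 0.486 (roX1 with msl-3). With msl-1, msl-2 and mle, roX2 stood at -0.397, -0.434 and -0.383, and roX1 at 0.247, 0.294 and 0.236. With each other the roX RNAs stood at -0.009 over all 48 libraries, at 0.836 in males and at -0.317 in females. Female roX2 rests on 6 to 84 counts a library. All of these points share their library and its scaling.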

How the data were processed

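The deposited table gives raw counts of reads and a length in bases for each gene, with 1 column per library. The counts were whole numbers with unequal totals, and 0 columns belonged to other samples. Per the submitters' processing notes Subread was used (no version); the aligner, build, annotation and strand setting are not given in the sources used here. Positions are from BDGP6.54, matched by identifier (17288 of 17490). No sequence is shown, because no genome or sequence table was used here.

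The counts were fitted with edgeR 4.0.16 under R 4.3.3 (filterByExpr with minimum count 10 and minimum total 15, TMM factors, glmQLFit with robust=TRUE on a mean per group, 32 residual degrees of freedom). This left 15807 genes, with 1683 below the filter. Every adjusted p is by Benjamini-Hochberg over these genes within a contrast, and calls are at 0.05. SEs are |log2 fold change| over the root of the F statistic, and intervals are at 95%. CPM use TMM-scaled totals. Log2 CPM for correlations have a prior count of 2. Permutation tests used 100000 resamples in SciPy 1.17.1. Members, lists and settings were chosen with earlier results of these data known. Named genes are the members, up to 2 list genes called by sex with the smallest p (further list genes were picked with their values known), the 5 genes most like each member, of which some are given, and the 5 highest and 5 lowest X-linked genes.

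Alternatives were median-of-ratios (RLE) size factors, TMM factors from autosomal genes, library sizes without roX counts, no filter, a stricter filter (1 CPM in at least 24 libraries), DESeq2 1.42.0, a replicate block, each library left out in turn, KO female week 3 replicates 1 and 3 left out, and, chosen after seeing the data, the 9 libraries with the highest TMM factors left out. On simulated data for the sex comparison over 15807 genes, 92 of 100 genes changed 2-fold and 75 of 100 changed 1.5-fold were recovered, with 9 false calls. List entries not matched to a gene were left out.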

Additional observations from a re-analysis of the deposited data

Results flagged for a closer look

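The age effect differed between the sexes, by a test of the difference itself, for 4 members. As males minus females on the log2 scale, it was -0.96 for lncRNA:roX1 and -1.52 for lncRNA:roX2, which were called in females (0.97 and 1.62) and not in males (0.01 and 0.09). It was 0.32 for msl-1, which rose in males (0.28), and 0.35 for mle, which fell in females (-0.33). The 2 roX calls held in all 48 fits without 1 library and in 9 of 9 other settings. The msl-1 call held in 13 of 48 and 4 of 9, and the mle call in 18 of 48 and 6 of 9.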

How the results depend on the processing

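The roX sex and age calls, the msl-2 sex call and the mle age call in females (-0.18 to -0.38) held in all 48 fits without 1 library and in 9 of 9 other settings. Members called by age in males numbered 4 without the 9 libraries of high TMM factor, with roX2 (0.19) and msl-2 (0.17) added, and 1 to 2 in fits without 1 library. Members called by age-by-sex numbered 2 under the stricter filter, 2 without KO female week 3 replicates 1 and 3, 2 without the 9 libraries, and 2 to 5 in fits without 1 library. Among values called in either fit, directions turned for msl-1 by age in females under the stricter filter (0.12) and for mle by age in males in 7 fits without 1 week 3 library (-0.17 to -0.15, of -0.167 to 0.083 over all such fits). The correlation of the roX RNAs in females was -0.317 for deviations from group means, -0.123 within week 0 and 0.205 within week 3. Fits without 1 library also made calls absent from the full data: msl-2 and mof by age in females (15 and 10 fits; mof also in 3 of 9 other settings, 0.15 to 0.22), msl-3 by age in males (17 fits, -0.27 to -0.23) and msl-2 by sex in WG2 (9 fits). The median gene also moved between fits without 1 library, and the cause of these calls was not tested.

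Gene counts that differed by over 1.5 times included the following. Sex: 1602 with all libraries, 2406 under the stricter filter, 1060 without the KO pair. Sex in WG2: 147, 270 stricter, 272 without the 9, 274 with DESeq2. Age in females: 9865, 5197 stricter, 2539 without the 9. Age in males: 2943, 7211 without the 9. Age by sex: 3693, 2307 RLE, 1950 unfiltered, 72 stricter, 11 without the KO pair, 424 without the 9, and 31 to 6470 without 1 library. KO against WG2: 118, 179 stricter, 29 without the KO pair, 242 without the 9, 257 with DESeq2, and 79 to 238 without 1 library. KO by sex: 24, 1 without the KO pair, 186 without the 9, 63 with DESeq2. KO by age: 34, 0 without the KO pair in edgeR, 135 without the 9, 86 with DESeq2. W422X: 59, 90 without the 9, 94 with DESeq2. Y160C: 49, 77 stricter, 94 with DESeq2, and 3 against 28 with DESeq2 by age. Y160C by age also had 6 under the stricter filter and 1 to 5 without 1 library. In fits without 1 library KO by sex ran from 12 to 110 and KO by age from 15 to 123. Age in females ran from 6114 to 10770 in those fits.

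No general pairing was seen by the replicate numbers of the sample titles. Deviations of same-numbered libraries correlated at a median of -0.023 over 360 pairs (-0.921 to 0.871), against 0.014 for other pairs (-0.927 to 0.934). Pairing between some groups only was not tested. The column names number some libraries otherwise, and pairing by those numbers was not tested. With the replicate block the members called were the same in number in every comparison, and age by sex had 2716 genes. Female roX2 rests on 6 to 84 counts a library, which limits its precision, and 3 libraries a group limit every comparison within a group.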
